A study of Mus musculus with 12 samples.

Results

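Tumours treated with a nanobody construct that carries both an OD arm and a PD-1 arm were compared with tumours treated with the control Fc protein, gene by gene. The comparison covers all genes with at least 1 FPKM (sequenced fragments scaled by transcript length and library depth) in at least 3 of the 6 libraries concerned. That rule kept 13270 of 41009 gene symbols, and 6 of the 12 libraries of the series. The measurement is bulk RNA sequencing of whole tumours, with paired reads of 150 bp from poly(A)-selected RNA.

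The tumours grew from 4T1 cells labelled with the fluorescent protein mCherry. Female BALB/c mice 4 to 5 weeks old received 5000000 cells in the mammary fat pad. Treatment was intraperitoneal and started 7 days later, when mice were assigned to groups at random. The control group (Ctrl, 3 libraries) received Ctrl-Fc at 5 mg/kg, and the dual-arm group (3 libraries) received VHH-OD-PD-1-Fc at 4.3 mg/kg. The groups with a single arm, VHH-OD-Fc at 3.5 mg/kg and VHH-PD-1-Fc at 2.6 mg/kg (3 libraries each), enter only where the dual-arm group is set against them. A VHH, or nanobody, is the binding domain of a camelid antibody that has heavy chains only, and Fc is the constant stem of an antibody. The labels do not spell out OD, and the series title names endogenous digoxin-like substances as a target. 4T1 is a single mouse mammary carcinoma line, so every library holds the same tumour cells together with whatever stroma and immune cells the host supplied.

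PD-1, encoded by Pdcd1, is an inhibitory receptor on activated T cells. Its ligand PD-L1, encoded by Cd274, is induced by interferon gamma, which acts through the transcription factor IRF1 among others and which also drives the guanylate-binding proteins, the immunity-related GTPases and antigen presentation on MHC class I. Digoxin and its relatives bind the sodium pump Na,K-ATPase. 4T1 tumours are known for secreting G-CSF (Csf3) and for the large number of neutrophils they attract.

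The 6 libraries were of similar size. The step between the lowest FPKM values put the depth at 50550000 to 51450000 counted fragments or reads in Ctrl and 49000000 to 50800000 in the dual-arm group. The groups stood apart along the first principal component, which held 73.5% of the variance. They also differed in ways that touch many genes at once. FPKM values summed to 330507 to 337816 in Ctrl and to 392283 to 394139 in the dual-arm libraries, genes above 0 numbered 25258 to 26203 against 30348 to 31676, and ribosomal protein genes took 8.98% to 9.82% against 13.8% to 14.1% of all FPKM. The dual-arm libraries resembled each other more closely (Pearson r across genes 0.992 to 0.993) than the Ctrl libraries did (0.963 to 0.986). Between pairs of dual-arm libraries the mean chi-square per gene was 8.96 to 10.7, against 29.3 to 107.5 between pairs of Ctrl libraries and 1 for counting noise alone. The median per gene was 2.88 to 3.05 between dual-arm pairs and 2.72 to 5.34 between Ctrl pairs, so the medians overlapped. The dual-arm libraries were taken as 3 samples because the labels list 3 libraries and the counts differed by more than counting noise. Repeat libraries of 1 tumour could do so as well. Skeletal muscle markers summed to 129, 135 and 134 FPKM in the dual-arm libraries and to 0.329, 178 and 10.5 FPKM in Ctrl. Plasma cell markers summed to 17.7, 23.1 and 18.2 FPKM against 2610, 15.6 and 216 FPKM. Whether the dual-arm libraries came from separate tumours was not tested. Counts are therefore also given with the dual-arm libraries averaged into 1 sample (as 1 sample). No label names a batch, and one that followed the groups cannot be told apart from them.

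Of the 13270 genes, 7269 (54.8%) were called different by limma at a Benjamini-Hochberg adjusted p under 0.05. The calls were 2573 genes higher in the dual-arm group (19.4% of those tested) and 4696 lower (35.4%). A change of at least 2-fold, which is 1 on the scale of log2(FPKM + 1) used throughout, was reached by 1044 called genes (7.87%), 491 higher (3.7%) and 553 lower (4.17%). That scale understates the change of genes with low values. The median difference over all genes was -0.14. The direction split rests on the scaling: 35.4% of the calls were higher on FPKM, 18.3% after each library was rescaled to the same sum (TPM, median -0.37), 51.4% with median-of-ratios factors, 48.7% after quantile normalization and 47.0% after removal of the trend on transcript length. With the dual-arm libraries counted as 1 sample, 1338 genes were called (10.1%), 582 higher (4.39%) and 756 lower (5.7%). In 8675 genes (65.4%) the values of the groups did not overlap. Genes at 1 FPKM or more only in the dual-arm libraries numbered 300, of which 294 were called. Those only in the Ctrl libraries numbered 486, of which 453 were called. Both kinds passed the filter through 1 group, so the counts over gene lists below are descriptions. The same holds for the p-values and lack of overlap of single genes of these kinds, such as Cxcl13, Cd79b, Gbp10, Timp3, Kdr, Cxcl12, Lpl, Egfr and Gm15850. List counts stand beside the shares of all genes, 19.4% higher and 35.4% lower.

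**Figure D1:**
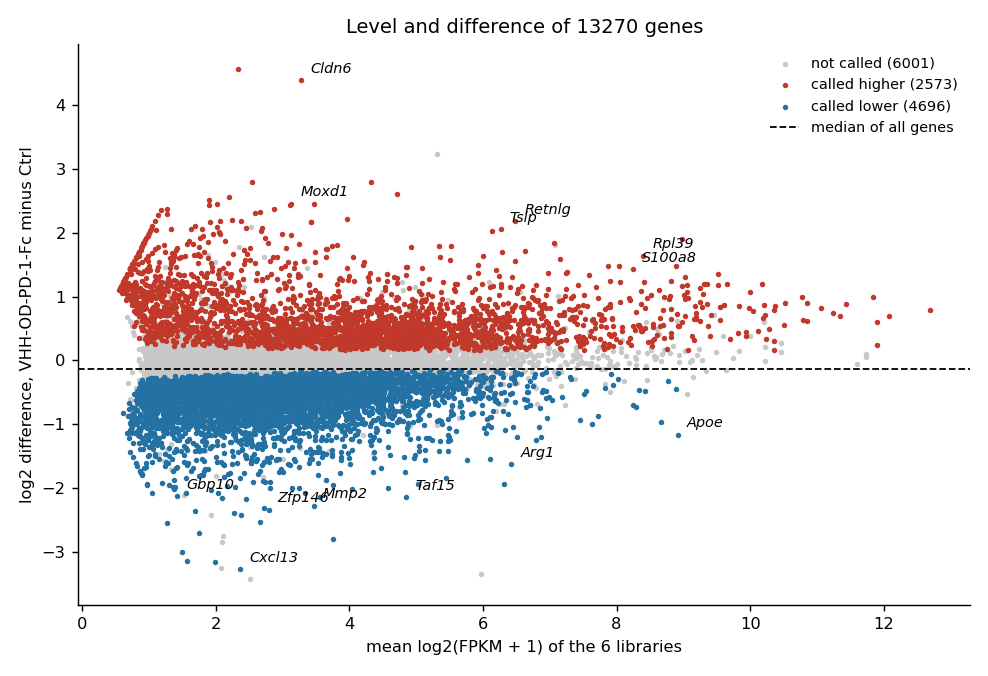
Each point is 1 of 13270 genes, with the mean log2(FPKM + 1) of the 6 libraries on the horizontal axis and the log2 difference, dual-arm minus Ctrl, on the vertical axis. Red points are the 2573 genes called higher, blue points the 4696 called lower and grey points those not called, and the dashed line is the median of all genes at -0.14. Cldn6 lies near the top at 4.39 and Cxcl13 near the bottom at -3.27.

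Among genes other than unnamed gene models, the largest rise was in Cldn6, a claudin of tight junctions best known from embryonic epithelium. It read 0.61, 1.52 and 1.36 FPKM in the Ctrl libraries and 42.1, 43.8 and 44.7 FPKM in the dual-arm libraries, without overlap. The difference was 4.39 ± 0.17 (log2, SE; limma adjusted p = 5.75e-05, and 0.0268 with the dual-arm libraries as 1 sample). A larger log2 difference, 4.56, belonged to the gene model Gm15850, which lay outside the naming rule and was picked out after its values were seen. It read 0, 0.0249 and 0.0924 FPKM in Ctrl and 24.7, 22.7 and 23.1 FPKM in the dual-arm libraries.

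Genes of neutrophils and their granules stood among the largest rises. Retnlg, a resistin-like protein secreted by neutrophils, read 31.9, 60.4 and 35.4 FPKM in Ctrl and 194, 194 and 181 FPKM in the dual-arm libraries (log2 difference 2.18 ± 0.22, adjusted p = 0.000494). S100a8, a subunit of the calcium-binding protein calprotectin, read 191, 218 and 149.6 FPKM against 507, 479.7 and 507 FPKM (1.43 ± 0.13, adjusted p = 0.000374), and its partner S100a9 read 595, 604 and 415 FPKM against 1224, 1198 and 1239 FPKM (1.2, adjusted p = 0.000906). The groups did not overlap in any of the 3 genes. Wfdc17, a secreted protein of activated myeloid cells, read 91.3, 89.4 and 65.5 FPKM against 248, 241 and 252 FPKM (1.59, adjusted p = 0.000249).

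The stefin A proteins are inhibitors of cysteine cathepsins that are abundant in mouse neutrophils. This family was listed after its values had been seen. Of its 10 listed genes 7 were tested, and all 7 were called higher with a median difference of 1.34, while none was called with the dual-arm libraries as 1 sample. Stfa2 read 8.79, 26.5 and 15.1 FPKM in Ctrl and 57.2, 46.5 and 62.8 FPKM in the dual-arm libraries, and Cstdc5 read 3.59, 10.4 and 6.99 FPKM against 26.8, 24.6 and 24.6 FPKM. Members of the family are near-identical copies, so reads may have been split between them. As TPM 6 of the 7 were called higher. After removal of the trend on transcript length 1 of the 7 was called higher (median 0.99). The median length of the family was 419 bases.

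Over the whole neutrophil list, 18 of 20 genes were tested, 8 were higher and 2 lower, with a median of 0.38 against -0.14 for all genes. Those higher also included the stefin Stfa2l1, the decoy receptor Il1r2 (0.68), the collagenase Mmp8 (0.87), the surface antigen Ly6g (0.89) and Wfdc21 (1.11). The lower members were Ltf, the lactoferrin of secondary granules, at 22.1, 9.19 and 7.54 FPKM against 4.1, 3.23 and 4.03 FPKM, and the gelatinase Mmp9, at 123, 212 and 185 FPKM against 90.5, 87.5 and 92.5 FPKM. The receptors that define circulating neutrophils did not pass the test: Csf3r, the G-CSF receptor, differed by -0.11 (adjusted p = 0.582) and Cxcr2 by -0.27 (adjusted p = 0.341). With the dual-arm libraries as 1 sample, 1 of the 18 was called. The 6 neutrophil markers, 4 of them called higher, summed to 622 to 913 FPKM in Ctrl and 1899.9 to 1955 FPKM in the dual-arm libraries. S100a9, S100a8 and Retnlg, given above, make up most of that sum in both groups, and Csf3r and Cxcr2 were not called. The part of neutrophil number in these results was not tested. In bulk tissue, fewer or more cells of a type cannot be told apart from less or more RNA per cell.

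Tslp and Csf3, cytokines that epithelial and tumour cells secrete, rose too. Tslp, thymic stromal lymphopoietin, read 69.2, 19.7 and 36 FPKM in Ctrl and 155, 153 and 161 FPKM in the dual-arm libraries, a difference of 2.06 ± 0.40 (adjusted p = 0.00536). Csf3 read 139, 109 and 115 FPKM against 318, 297 and 299 FPKM (1.33 ± 0.10, adjusted p = 0.000193), and the neutrophil chemokine Cxcl1 read 46.4, 69 and 32.5 FPKM against 121, 116 and 119.6 FPKM (1.32, adjusted p = 0.00446). None of these overlapped between the groups. Other genes among the 15 largest rises were Moxd1, a monooxygenase-like protein (2.46), Ncmap, a protein of non-compact myelin (1.85), Rpl39l, a ribosomal protein copy used in male germ cells (1.83), and Rufy4, an autophagy regulator of dendritic cells (1.76), together with 6 microRNA loci (Mir3092, Mir1907, Mir7675, Mir703, Mir1195 and Mir763), for which FPKM over a very short feature is uncertain. In Moxd1 the level in 1 VHH-PD-1-Fc library, 107 FPKM, exceeded every dual-arm library.

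**Figure D2:**
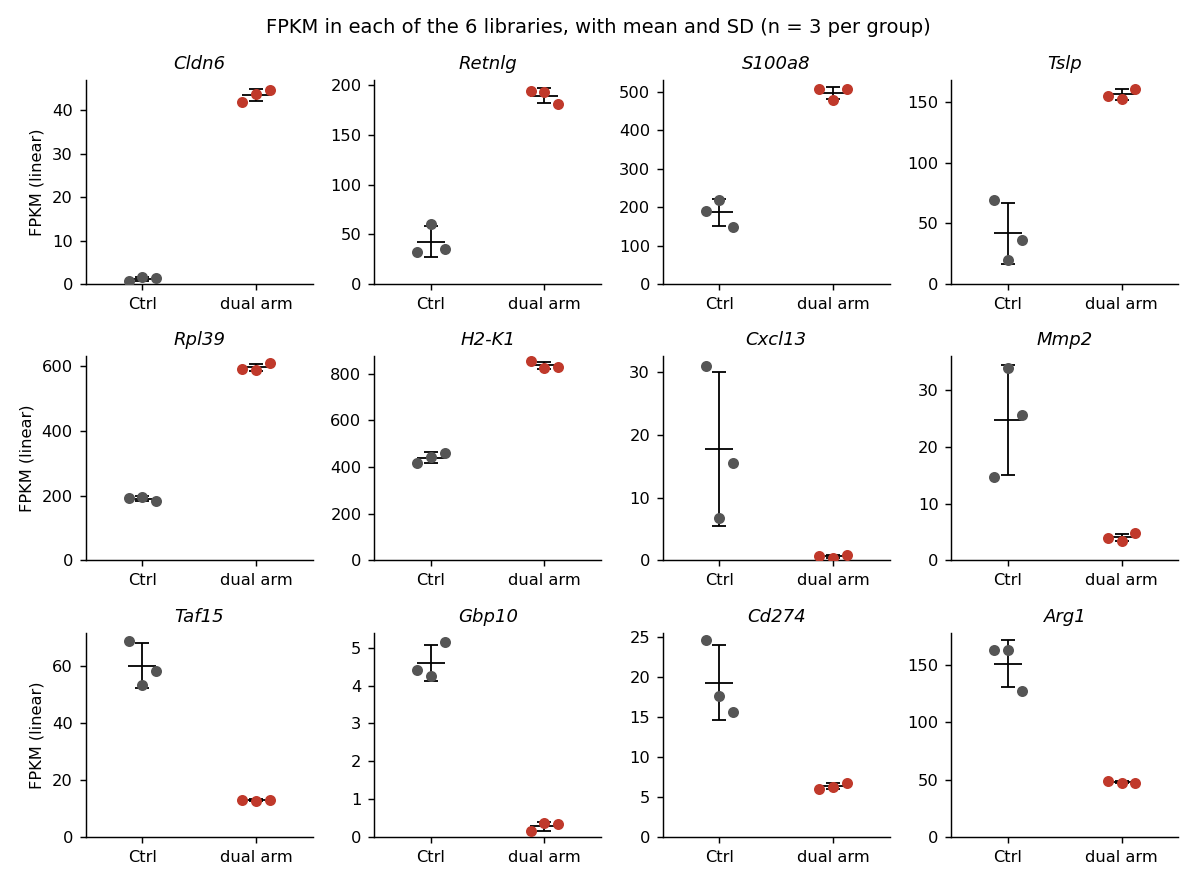
FPKM in each of the 6 libraries for 12 genes, on linear axes that start at 0, with the mean and the SD of the 3 libraries of a group drawn as bars. Grey points are Ctrl and red points the dual-arm group. The dual-arm points lie close together and outside the range of the Ctrl points in all 12 genes.

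The largest fall was in Cxcl13, the chemokine that draws B cells and follicular T cells into lymphoid tissue. It read 31, 6.78 and 15.5 FPKM in Ctrl and 0.645, 0.453 and 0.928 FPKM in the dual-arm libraries (-3.27 ± 0.47, adjusted p = 0.00172). The Ctrl libraries differed widely among themselves, yet the lowest of them lay above every dual-arm library. All dual-arm values were under 1 FPKM, so Cxcl13 passed the filter through Ctrl alone. Lilrb4a, an inhibitory receptor of myeloid cells, read 22.3, 12.1 and 10.6 FPKM against 1.51, 1.85 and 1.51 FPKM (-2.54, adjusted p = 0.00046). Mmp2, a gelatinase made mainly by fibroblasts, read 14.6, 33.9 and 25.7 FPKM against 4.02, 3.42 and 4.75 FPKM (-2.28, adjusted p = 0.000988).

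Several large falls were in genes that every cell uses. Taf15, an RNA-binding protein of the FET family, read 68.7, 53.3 and 58 FPKM in Ctrl and 12.8, 12.4 and 13.1 FPKM in the dual-arm libraries (-2.14 ± 0.10, adjusted p = 6.83e-05). Idi1, which makes an isoprenoid building block of cholesterol, read 8.11, 7.16 and 7.17 FPKM against 0.917, 1.04 and 1.04 FPKM (-2.08 ± 0.082, adjusted p = 5.75e-05). The zinc finger gene Zfp146 read 13.1, 14.9 and 15.8 FPKM against 2.14, 2.18 and 1.92 FPKM (-2.34, adjusted p = 5.75e-05). None of the 3 overlapped between groups, and all 3 were also called with the dual-arm libraries as 1 sample (adjusted p = 0.0314, 0.0263 and 0.0261). The remaining protein-coding genes among the 15 largest falls were Ifi211, an interferon-inducible PYHIN protein (-2.31), Gbp10, a guanylate-binding protein (-2.13), the lipid phosphatase Sacm1l (-2.08) and the focal adhesion protein Vcl, vinculin (-2.03). The other 5 were the host gene Mir100hg, the microRNA loci Mir186 and Mir3060 and the small nucleolar RNAs Snord73b and Snord98.

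Among genes with a mean of at least 100 FPKM, the largest falls were Rsrp1, a protein related to splicing factors, at 222, 125 and 135 FPKM against 40.4, 40.2 and 38.9 FPKM (-1.94), the chemokine Cxcl14 (-1.25) and the RNA helicase Ddx5, at 161, 184 and 182 FPKM against 77.2, 74.8 and 76.4 FPKM (-1.19). They were followed by the lipoprotein Apoe (-1.16), the guanylate-binding protein Gbp2 (-1.04), Igfbp7, a matrix protein of vessels and fibroblasts (-0.99), the glycolytic enzyme Pgam1 (-0.94) and Mmp9 (-0.90). The largest rises at that level were Retnlg, Mir703, Wfdc17, S100a8, the ribosomal protein genes Rpl39, Rps20 and Rpl17, and the AP-1 subunit Jund, which read 60.8, 95.4 and 80.2 FPKM in Ctrl and 204, 197 and 203 FPKM in the dual-arm libraries (1.37, adjusted p = 0.000669).

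Genes induced by interferon gamma were lower as a group. All 28 listed genes were tested, 23 were lower and 1 was higher, with a median difference of -0.80 against -0.14 for all genes, and 12 were called with the dual-arm libraries as 1 sample. The median stayed negative under the other scalings (-1.14 as TPM, -0.67 with median-of-ratios factors). Interferon-activated factors bind short motifs near the start of such genes. The interferon-stimulated response element (ISRE) was searched as GAAANNGAAA and the gamma-activated site (GAS), a palindrome, as TTCNNNGAA, on both strands over the 250 bases before the start of each gene. The 150 bases before the start are shown from the RefSeq promoters of mouse build GRCm38.p6, each along its gene's own strand, with the matches in capitals. The first 5 genes, on the plus strand, were chosen because they hold a match, and Cxcl9, on the minus strand, because it was lower and holds none.
Gbp2, chr3:142620513-142620662: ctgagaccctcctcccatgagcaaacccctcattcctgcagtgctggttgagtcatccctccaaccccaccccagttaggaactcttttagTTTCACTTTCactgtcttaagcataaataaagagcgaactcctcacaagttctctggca
Gbp3, chr3:142559894-142560043: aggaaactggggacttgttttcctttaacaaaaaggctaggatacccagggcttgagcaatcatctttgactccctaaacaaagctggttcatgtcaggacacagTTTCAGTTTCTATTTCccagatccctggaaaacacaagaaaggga
Gbp7, chr3:142530186-142530335: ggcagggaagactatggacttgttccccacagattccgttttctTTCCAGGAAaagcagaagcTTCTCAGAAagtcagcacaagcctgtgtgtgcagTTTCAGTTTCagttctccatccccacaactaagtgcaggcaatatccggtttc
Gbp5, chr3:142496784-142496933: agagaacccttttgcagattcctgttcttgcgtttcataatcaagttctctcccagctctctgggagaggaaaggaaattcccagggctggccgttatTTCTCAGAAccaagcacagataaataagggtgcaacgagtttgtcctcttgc
Irf1, chr11:53769864-53770013: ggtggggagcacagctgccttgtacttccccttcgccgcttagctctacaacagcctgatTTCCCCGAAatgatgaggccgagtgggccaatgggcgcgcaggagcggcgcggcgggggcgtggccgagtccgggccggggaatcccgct
Cxcl9, chr5:92328080-92328229: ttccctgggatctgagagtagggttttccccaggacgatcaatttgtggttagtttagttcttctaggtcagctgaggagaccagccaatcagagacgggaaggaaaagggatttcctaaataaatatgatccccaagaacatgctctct

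An ISRE on the minus strand appears as TTTCNNTTTC. In Gbp2 the ISRE match starts 59 bases before the gene, and in Gbp3 a pair of overlapping ISRE matches starts 45 and 39 bases before it. Gbp7 holds GAS matches at 106 and 87 bases and an ISRE match at 53 bases, and Irf1 a single GAS match at 90 bases. Irf1 and Gbp3 each have another listed promoter, with no match, and a gene was counted as holding a motif where any of its promoters did. Gbp5 shows a GAS match at 52 bases, with an ISRE match at 165 bases and another GAS match at 245 bases outside the stretch shown. Of the 28 genes 15 had a promoter in the table. Of these, 11 (73.3%) held an ISRE match and 8 (53.3%) a GAS match, against 3.46% and 8.13% of all 27025 genes with promoters of the same length, and against 3.42% and 6.96% of the 9186 tested genes with a promoter. Among the 13 with a promoter that were lower, 10 (76.9%) held the ISRE and 7 (53.8%) the GAS. The list was written as genes induced by interferon gamma, so its excess of motifs over all genes follows from that choice. The excess says nothing about the treatment. A match is a stretch of letters and does not show that a factor binds there.

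The guanylate-binding proteins, GTPases that attack the vacuoles of intracellular pathogens, were lower in all 10 tested members, Gbp2 to Gbp11. Gbp10 read 4.41, 4.26 and 5.15 FPKM in Ctrl and 0.144, 0.367 and 0.332 FPKM in the dual-arm libraries (-2.13 ± 0.11, adjusted p = 9.54e-05). Gbp5 read 11.3, 8.37 and 7.04 FPKM against 1.26, 1.71 and 1.43 FPKM (-1.99, adjusted p = 0.00027), and Gbp3 read 54.8, 52.5 and 48.3 FPKM against 17.6, 16.9 and 17.6 FPKM (-1.52, adjusted p = 5.75e-05). In all 3 the lowest Ctrl value lay well above the highest dual-arm value. Gbp2, the most abundant of them, read 119.7, 215 and 171 FPKM against 78.8, 77.7 and 81.5 FPKM (-1.04, adjusted p = 0.0049) and Gbp7 read 24.4, 23 and 22.8 FPKM against 15.2, 14.1 and 14.4 FPKM (-0.65, adjusted p = 0.000365). The Gbp genes resemble each other closely, so the split of reads between them is uncertain.

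The immunity-related GTPases, which act on the same vacuoles, were lower too. Iigp1 read 60.8, 64.8 and 70.5 FPKM in Ctrl and 23.2, 23.4 and 24.9 FPKM in the dual-arm libraries (-1.42, adjusted p = 8.40e-05), and Tgtp2 read 30.7, 38.9 and 40.6 FPKM against 9.77, 10.3 and 10.5 FPKM (-1.74). Differences were smaller for Irgm2 (-1.0), Irgm1 (-0.86) and Igtp (-0.48), all called. Irf1, the transcription factor that carries the interferon gamma signal on, read 68.1, 65.2 and 65.6 FPKM against 42.4, 43.1 and 44.6 FPKM (-0.60, adjusted p = 0.000283). The chemokine Cxcl9 was lower by a modest amount (38.2, 34.2 and 34.6 against 24.1, 23.1 and 24.1 FPKM, -0.57), and Cxcl10 was not called (-0.50, adjusted p = 0.292), with 1 Ctrl library at 25.7 FPKM. The gene that was higher was Wars1, a tRNA synthetase (0.43).

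Of the 32 type I interferon genes, all tested, 17 were lower and 1 was higher, with a median of -0.48, and 1 was called with the dual-arm libraries as 1 sample. Trim30a, a RING-domain ligase, was the largest fall at 21.3, 17 and 17.1 FPKM against 5.98, 6.64 and 5.87 FPKM (-1.43, adjusted p = 0.000185). The translation inhibitor Ifit2 read 12.3, 6.89 and 6.44 FPKM against 2.71, 2.6 and 2.79 FPKM (-1.32) and Samd9l, which restricts poxviruses, read 17.8, 11.8 and 12.4 FPKM against 5.15, 5.09 and 5.41 FPKM (-1.25). Much of the list was higher in 1 Ctrl library than in the others: Isg15, the ubiquitin-like modifier, read 186, 89.3 and 82.4 FPKM in Ctrl and 97.1, 86.2 and 92.3 FPKM in the dual-arm libraries, with overlap (-0.27, adjusted p = 0.461), and Mx1 read 13.4, 4.43 and 5.08 FPKM against 3.64, 2.99 and 3.47 FPKM (-0.84, adjusted p = 0.0853). The regulators Irf7 (0.18), Irf9 (-0.04) and Usp18 (-0.11) were not called, and Oas1a was the member called higher (0.20, adjusted p = 0.0261), though not as TPM (-0.023). An ISRE match stood in 10 of the 23 members with a promoter (43.5%) and in 5 of the 14 of them that were lower (35.7%).

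MHC class I genes moved in both directions. Of 21 tested genes 7 were higher and 9 lower, median -0.11. As 1 sample 3 were called. The heavy chain H2-K1 read 416, 444 and 462 FPKM in Ctrl and 853, 823 and 829 FPKM in the dual-arm libraries (0.92 ± 0.059, adjusted p = 0.000142), without overlap, and H2-D1 (0.30), H2-T22 (0.36) and B2m, the light chain (0.25), were higher by less. The peptide-loading steps were lower: the transporter subunits Tap1 (55.3, 50.2 and 55 against 36.2, 33.7 and 36.3 FPKM, -0.58) and Tap2 (-0.79), the editing factor Tapbpl (-0.94), the trimming peptidase Erap1 (-0.76) and the class I transactivator Nlrc5 (-0.58). The calls of H2-D1, H2-T22 and B2m depend on the scaling: as TPM, H2-K1 was the 1 gene of the list still called higher, and B2m differed by 0.017. After quantile normalization H2-D1 was called lower (-0.22, adjusted p = 0.0246) and B2m was not called (-0.12). Class I heavy chains share much sequence, so reads may be split between them.

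Among 11 tested MHC class II genes, 4 were lower and 1 was higher, with a median of -0.037. The number called rests on single libraries: it was 9 without Ctrl library 1, between 2 and 3 without 1 dual-arm library, and 0 as 1 sample. The class II transactivator Ciita read 7.46, 5.04 and 5.98 FPKM in Ctrl and 2.93, 3.03 and 2.96 FPKM in the dual-arm libraries (-0.84, adjusted p = 0.00202). The invariant chain Cd74 (0.13) and the beta chains H2-Ab1 (-0.034) and H2-Eb1 (-0.037) were not called. The alpha chain H2-Aa was called higher (0.37, adjusted p = 0.0123).

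T cell transcripts were scarce in both groups and lower in the dual-arm tumours. Of 18 listed genes 11 reached the filter, and 7 were lower and none higher, median -0.70. The number called fell to 3 without Ctrl library 3, to 3, 4 and 3 without dual-arm library 1, 2 and 3, and to 0 as 1 sample. Of the 10 cytotoxic effectors tested 2 were lower, and 4 were called without Ctrl library 1 or 3. Cd8a, the coreceptor of cytotoxic T cells, read 5.92, 3.33 and 4.25 FPKM in Ctrl and 2.38, 2.66 and 1.86 FPKM in the dual-arm libraries (-0.72 ± 0.19, adjusted p = 0.0168). The receptor chain Trac read 7.35, 4.66 and 4.48 FPKM against 1.59, 2.27 and 1.73 FPKM (-1.16, adjusted p = 0.0024). The groups did not overlap in either gene. Cd4 (2.87, 0.477 and 1.46 against 0.307, 0.318 and 0.275 FPKM) and Foxp3, the factor of regulatory T cells (0.628, 0.0858 and 0.169 against 0.018, 0.0831 and 0.151 FPKM), stayed under the filter and were not tested.

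The cytotoxic proteins granzyme B (Gzmb) and perforin (Prf1) did not pass the test. Gzmb read 26.9, 16.2 and 7.15 FPKM in Ctrl and 8.46, 6.44 and 8.08 FPKM in the dual-arm libraries (-0.87, adjusted p = 0.118), with overlap. Prf1 read 6.56, 3.65 and 2.9 FPKM against 2.07, 1.84 and 2.67 FPKM, without overlap (-0.70, adjusted p = 0.0503). Ifng read 1.25, 1.58 and 0.936 FPKM against 0.604, 0.881 and 1.01 FPKM (-0.30, adjusted p = 0.127), close to the filter in every library. The 2 called effectors were the cathepsin Ctsw (-1.07) and Cst7, cystatin F (-0.82).

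Of 15 tested inhibitory checkpoints and ligands 10 were lower and none was higher, median -0.40. The number called was 6 without dual-arm library 3 and 0 as 1 sample. Cd274, which encodes PD-L1, read 24.6, 17.7 and 15.6 FPKM in Ctrl and 6.02, 6.29 and 6.73 FPKM in the dual-arm libraries (-1.44 ± 0.16, adjusted p = 0.000614), and every Ctrl library exceeded 15 FPKM. Pdcd1, the receptor that the PD-1 arm names, read 3.58, 3.96 and 3.38 FPKM against 2.61, 1.91 and 1.94 FPKM (-0.56, adjusted p = 0.0060). The other PD-1 ligand Pdcd1lg2 (-1.02), the costimulators Cd80 (-0.80) and Cd86 (-0.76), and the receptors Lag3 (-0.60), Havcr2 (-0.40) and Ctla4 (-0.36) were lower too. Tigit (-0.31, adjusted p = 0.0576) and its ligand Pvr (0.073) were not called. Summed over the 6 T cell markers, FPKM ranged from 14 to 26 in Ctrl and from 7.97 to 9.25 in the dual-arm libraries, and the part of T cell number in these results was not tested.

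B cell and plasma cell transcripts varied widely within the Ctrl group. Igkc, the kappa light chain, read 2540.3, 14.3 and 207 FPKM in Ctrl and 17.1, 22.2 and 17.4 FPKM in the dual-arm libraries, and Jchain read 67.7, 1.11 and 8.62 FPKM against 0.417, 0.859 and 0.723 FPKM. Neither was called (adjusted p = 0.131 and 0.0807), and Ctrl library 1 was the highest in both. Of the 8 tested genes 1, the receptor component Cd79b, was lower (3.38, 1.0 and 7.91 against 0.475, 0.196 and 0.553 FPKM). All its dual-arm values were under 1 FPKM, so Cd79b passed the filter through Ctrl alone and its call is a description. Without Ctrl library 2, 6 of the 8 were called (median -2.18), and none without any 1 dual-arm library. Beside them, the 4 lymph node stroma markers summed to 10.4 to 55.4 FPKM in Ctrl and 2.9 to 3.53 FPKM in the dual-arm libraries, and the 4 B cell markers to 0.558 to 22.9 FPKM and 0.174 to 0.351 FPKM. The part of lymph node tissue in the results for Cxcl13, Cd79b and the T cell genes was not tested.

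Of 19 macrophage genes 0 were higher and 4 lower, with a median of -0.20, and 1 was called as 1 sample. That count rests on Ctrl library 1, without which 14 of the 19 were called, in a list with a median of -0.057. Among the 4 were Apoe, at 612, 786 and 779 FPKM in Ctrl and 332, 318 and 315 FPKM in the dual-arm libraries (-1.16, adjusted p = 0.000342), Adgre1, which encodes the F4/80 antigen (12.9, 7.78 and 8.08 against 3.29, 4.07 and 3.97 FPKM, -1.12) and the engulfment receptor Mertk (-0.37). Csf1r (-0.37), Cd68 (0.08) and the complement genes C1qa (0.23) and C1qb (0.60) were not called, and the 5 macrophage markers summed to 462 to 807 FPKM in Ctrl and 626 to 642 FPKM in the dual-arm libraries.

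Arg1, the arginase of immunosuppressive myeloid cells, read 163, 163 and 127 FPKM in Ctrl and 49, 47 and 47.5 FPKM in the dual-arm libraries (-1.63 ± 0.10, adjusted p = 0.000139, and 0.0367 with the dual-arm libraries as 1 sample). Nos2, which makes nitric oxide from the same amino acid, read 41.4, 46.7 and 57.9 FPKM against 22.1, 24.4 and 23.7 FPKM (-1.01, adjusted p = 0.000866). The other markers of alternative activation were not uniform: the interleukin 4 receptor Il4ra was lower (-0.34), Ccl24 was higher (0.74) and Mrc1 was not called (-1.01, adjusted p = 0.102).

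Of 17 tested inflammatory cytokines and mediators, 5 were higher and 7 lower, and 2 were called with the dual-arm libraries as 1 sample (Csf3 and Il33). The alarmin Il33 read 6.55, 5.58 and 6.09 FPKM in Ctrl and 1.48, 1.74 and 0.87 FPKM in the dual-arm libraries (-1.6, adjusted p = 0.000393). Lower values were also called for Tnf (-0.84), oncostatin M (Osm, -0.89), Lif (-0.63), the inflammasome sensor Nlrp3 (-0.93) and Ptgs2, the inducible prostaglandin synthase (-0.51). Besides Csf3 and Tslp the higher genes were Csf2 (0.81), Il23a (0.68) and Ptges (0.23), of which Ptges was no longer called as TPM. Il1b (-0.36) and Il6 (0.36) were not called. Of 15 chemokines for neutrophils and monocytes 2 were higher (Cxcl1 and Ccl4) and 2 lower: Cxcl12, the ligand of CXCR4, at 2.75, 2.39 and 2.58 FPKM against 0.708, 0.541 and 0.626 FPKM, and Ccl5 (-0.43). Of these 15, 8 were called without Ctrl library 1, 7 without Ctrl library 3 and 1 as 1 sample. Ccl2, Ccl7, Ccl8, Cxcl5 and Ccl12 were each highest in Ctrl library 1 and were not called. Of 10 T cell chemokines and their receptors 4 were lower, among them Cxcl13, Cxcl9 and the receptor Cxcr6 at -0.90, and 2 were higher, among them the receptor Cxcr3 at 4.22, 9.93 and 8.62 FPKM against 11.1, 14.1 and 15 FPKM (0.80, adjusted p = 0.0473). None of the 10 was called as 1 sample.

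**Figure D3:**
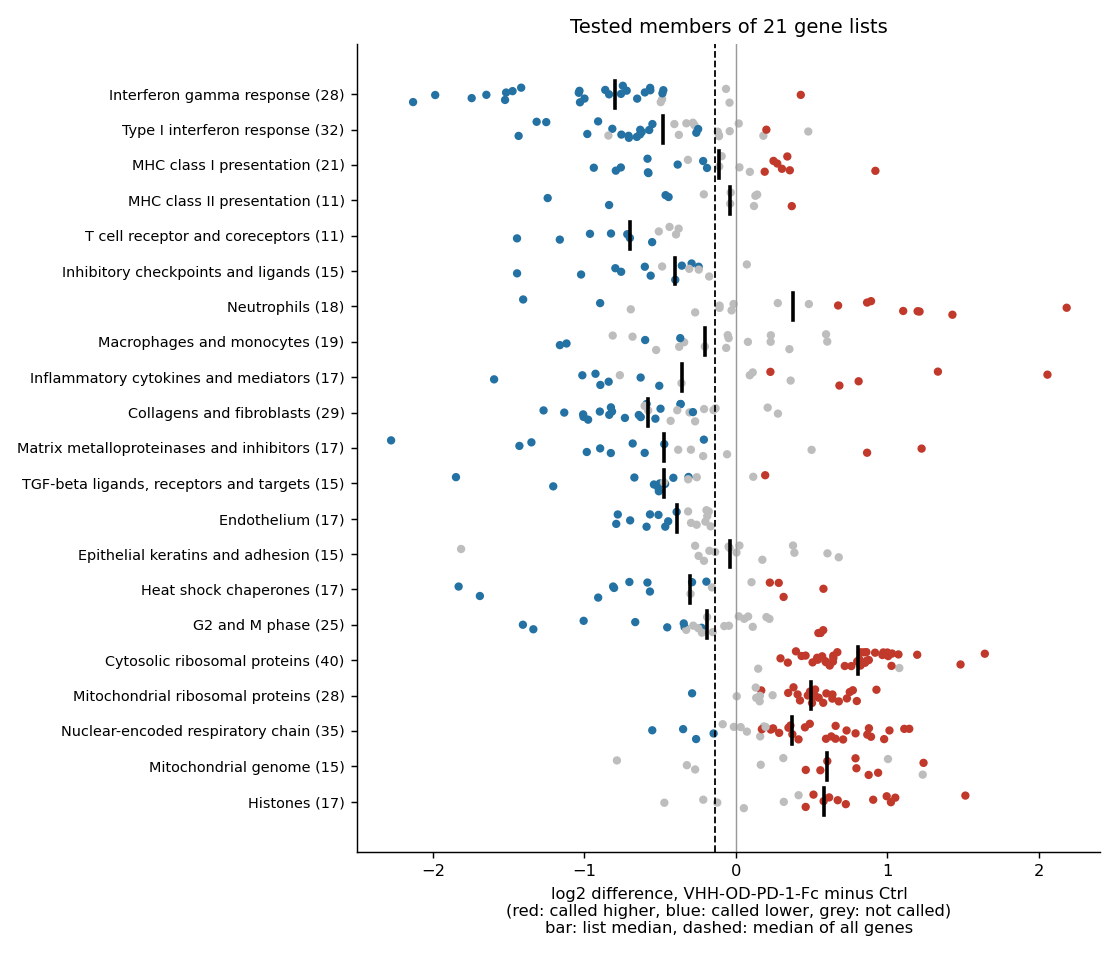
Each point is a tested member of 1 of 21 gene lists (number tested in brackets), placed by its log2 difference, dual-arm minus Ctrl. Red is called higher, blue called lower, grey not called, the short vertical bar is the list median and the dashed line the median of all genes. Interferon, T cell, collagen and endothelial lists lie mostly to the left of the line and ribosomal, mitochondrial and histone lists to its right.

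Stromal genes were lower. Of 29 tested collagens, matrix proteins and fibroblast genes 18 were lower and none was higher, median -0.58, with none called with the dual-arm libraries as 1 sample. The basement membrane collagen Col4a1 read 76.1, 107 and 104 FPKM in Ctrl and 47.3, 46.5 and 46 FPKM in the dual-arm libraries (-1.01 ± 0.13, adjusted p = 0.0011). Col12a1, which sits on fibril surfaces, read 19.8, 35.8 and 36.7 FPKM against 11.5, 11.9 and 11.8 FPKM (-1.27, adjusted p = 0.00373), and fibronectin, Fn1, read 337, 436 and 441 FPKM against 240.2, 244 and 239.7 FPKM (-0.73, adjusted p = 0.00189). None of these overlapped between the groups. The main fibril collagens Col1a1 (-0.31, adjusted p = 0.13) and Col1a2 (-0.43, adjusted p = 0.0669) and the matricellular Sparc (0.21) were not called. The fibroblast markers Pdgfra (-0.90), Dcn (-0.53) and Lum (-0.37) and the myofibroblast actin Acta2 (-0.64) were lower. The 5 fibroblast markers summed to 462 to 639.8 FPKM in Ctrl and 441 to 445 FPKM in the dual-arm libraries, and the part of fibroblast number was not tested.

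TGF-β stimulates matrix production through SMAD3. Of 15 tested ligands, receptors and targets 10 were lower and 1 was higher, median -0.47. Ccn2, a matricellular protein and TGF-β target, read 36.4, 98.1 and 85.7 FPKM in Ctrl and 29, 27.3 and 29.8 FPKM in the dual-arm libraries (-1.21, adjusted p = 0.0247). Its dual-arm values lay below the lowest Ctrl value. The receptors Tgfbr1 (-0.41) and Tgfbr2 (-0.47) and the transducer Smad3 (-0.31) were lower by less, the ligand Tgfb1 was not called (0.11) and the ligand Tgfb3 was higher by 0.19, though not as TPM (-0.028). With median-of-ratios factors 6 of the 15 were lower and 2 higher, and after removal of the trend on transcript length 4 and 2 (median -0.20). In place of 11, 7 were called without Ctrl library 2 or any 1 dual-arm library, and 0 as 1 sample.

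Matrix metalloproteinases split by member, with 2 higher and 10 lower of 17. As 1 sample 1 was called. Besides Mmp2 and Mmp9, the protease Adamts1 (10.8, 23.9 and 15.1 against 5.16, 5.35 and 5.15 FPKM, -1.43), the macrophage elastase Mmp12 (-0.98) and the membrane-bound Mmp14 (-0.47) were lower. Timp3, an inhibitor anchored in the matrix, read 1.7, 2.51 and 2.45 FPKM against 0.20, 0.194 and 0.376 FPKM (-1.35, adjusted p = 0.000485). Mmp3, stromelysin, went the other way at 127, 166 and 244 FPKM against 402, 411 and 403 FPKM (1.23, adjusted p = 0.00376). Mmp13 (-0.30) and Timp1 (0.50) were not called.

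Endothelial genes were lower in 9 of 17 and higher in none, median -0.39, with 14 called without Ctrl library 1 and none as 1 sample. Pecam1, the junction protein CD31, read 7.79, 9.81 and 8.65 FPKM in Ctrl and 4.86, 4.84 and 4.29 FPKM in the dual-arm libraries (-0.78, adjusted p = 0.00096). The receptor Kdr of the growth factor VEGF read 1.86, 2.0 and 1.65 FPKM against 0.712, 0.792 and 0.74 FPKM (-0.70), and Vegfa itself read 54, 65.7 and 68.8 FPKM against 24.6, 24.8 and 26.6 FPKM (-1.27 ± 0.10, adjusted p = 0.000222). Groups did not overlap in these genes. The junction proteins Cldn5 (-0.20) and Esam (-0.19) were not called. The count depends on the scaling: 6 endothelial genes were lower with median-of-ratios factors and 5 after quantile normalization. After removal of the trend on transcript length 5 were lower, beside 3140 of 12853 genes overall. The 3 endothelial markers summed to 17.8 to 24.2 FPKM in Ctrl and 9.8 to 12.2 FPKM in the dual-arm libraries, and the part of vessel content was not tested.

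Transcripts of muscle and fat, tissues found around the mammary gland, were uneven between the Ctrl libraries. Skeletal muscle markers summed to 0.329 to 178 FPKM in Ctrl and to 129 to 135 FPKM in the dual-arm libraries. Acta1, skeletal actin, read 0.322, 148 and 9.97 FPKM against 117, 124 and 123 FPKM, and its large difference (3.24) was not called (adjusted p = 0.117). None of 13 muscle genes and none of 5 erythroid genes was called. Without Ctrl library 2, the highest in Acta1, 12 of the 13 muscle genes were called (median 2.55), and without Ctrl library 1 3 of the 5 erythroid genes were. Of 9 adipocyte genes 3 were lower, a share near the 35.4% of all genes. Among them was the lipoprotein lipase Lpl (2.61, 2.48 and 3.02 against 0.692, 0.831 and 0.868 FPKM, -1.04).

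None of 15 keratins and adhesion genes, which mark the epithelial tumour cells, was called. Without Ctrl library 1, 6 of the 15 were called and the median moved from -0.041 to -0.28, and without Ctrl library 2 2 were called. By library, the 5 epithelial markers summed to 1129.6 to 2489.6 FPKM in Ctrl and 2427 to 2486 FPKM in the dual-arm libraries. Epcam read 14.3, 162 and 98 FPKM against 101, 99.5 and 98 FPKM (adjusted p = 0.505), and Krt8 read 477, 890.2 and 722 FPKM against 883, 873 and 873 FPKM (adjusted p = 0.173). The low end in both came from Ctrl library 1. Of 14 claudin and tight junction genes, 2 were higher (Cldn6, and Cldn7 at 2.18, 2.08 and 2.36 FPKM against 4.73, 4.79 and 5.84 FPKM, 0.93) and 5 were lower, among them the scaffold proteins Tjp1 (-0.46) and Tjp3 (-0.61). Of the 14, 11 were called without Ctrl library 1 and 2 as 1 sample. Cldn3 (0.81, adjusted p = 0.0629) and Cldn4 (0.17) were not called.

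Genes linked to epithelial to mesenchymal transition moved both ways, 5 higher and 3 lower of 10, with 1 called as 1 sample. Twist2, a basic helix-loop-helix factor, read 1.21, 1.86 and 1.94 FPKM in Ctrl and 4.73, 4.9 and 4.53 FPKM in the dual-arm libraries (1.11, adjusted p = 0.000666). Tcf4 (0.69), S100a4 (0.72), Foxc2 (0.56) and vimentin, Vim (0.47 on FPKM and -0.13 after quantile normalization), were higher, and Fn1, Zeb2 (-0.59) and Snai1 (-0.40) were lower. The median of the list was 0.17 on FPKM and -0.061 as TPM, so the list has no direction that holds across scalings.

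In the EGF receptor family and its MAPK feedback, 3 of 17 tested genes were higher and 4 lower, with 1 called as 1 sample. The ligand amphiregulin, Areg, read 22.5, 31 and 37.1 FPKM in Ctrl and 50.7, 47.3 and 45.3 FPKM in the dual-arm libraries (0.67, adjusted p = 0.0152), and the phosphatase Dusp5 read 21.6, 25.9 and 25.2 FPKM against 50.7, 52.2 and 49.7 FPKM (1.04, adjusted p = 0.000205). Spry1, a feedback inhibitor of receptor signalling, read 57.2, 43.9 and 24.9 FPKM against 13.3, 14 and 13.3 FPKM (-1.49 ± 0.27, adjusted p = 0.00442). The groups did not overlap in these 3 genes. Egfr was low and lower (1.19, 1.7 and 1.39 against 0.506, 0.504 and 0.712 FPKM, -0.62), and the related inhibitors Spry2 (0.19) and Spry4 (0.21) were not called.

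Ribosomal protein genes were higher almost without exception. Of 40 tested genes of the cytosolic ribosome 38 were higher and none lower, with a median of 0.81, and 15 were called with the dual-arm libraries as 1 sample. Rpl39, a short protein of the exit tunnel, read 191, 196 and 182 FPKM in Ctrl and 589, 588 and 608 FPKM in the dual-arm libraries (1.64 ± 0.054, adjusted p = 5.75e-05). Rps20 read 126, 149 and 143 FPKM against 394, 389 and 389 FPKM (1.48, adjusted p = 7.68e-05), and Rplp1, the most abundant of the list, read 2651, 2595 and 2492 FPKM against 5235, 5122 and 5126 FPKM (1.0). None of these overlapped. The 2 genes not called were Rpl4 (0.15) and Rpl30 (1.08, with values from 11.2 to 57.2 FPKM within the dual-arm group). As TPM 34 of the 40 were higher and none lower, and after removal of the length trend 35 and none. After quantile normalization, which draws in the highest values, 26 were higher and 2 lower, with a median of 0.32, and Rpl4 was called lower (-0.42, adjusted p = 0.00158). Ribosomal protein genes have many processed pseudogenes, so reads may be shared with copies.

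Mitochondrial genes followed, 21 higher and 1 lower of 28 mitochondrial ribosomal proteins (median 0.50) and 24 higher and 4 lower of 35 nuclear-encoded respiratory chain subunits (median 0.37). As 1 sample 4 and 9 were called. Ndufa4, a subunit found with complex IV, read 62.2, 55.5 and 51.1 FPKM in Ctrl and 126, 130.1 and 120.1 FPKM in the dual-arm libraries (1.15, adjusted p = 0.000183), and Cox7a2 read 100.2, 106 and 99.1 FPKM against 221, 217 and 224 FPKM (1.11, adjusted p = 6.96e-05). The lower subunits were Ndufs1 (-0.55), Uqcrc2 (-0.35), Ndufv1 (-0.26) and Sdha (-0.15, and 0.017 with median-of-ratios factors), all encoded by longer transcripts than those 2. For transcripts of the mitochondrial genome the count depends on the scaling. After quantile normalization 4 of 15 were higher and 1 was lower, with a median of 0.16 against 0.60 on FPKM. Of the 15 transcripts of the mitochondrial genome 8 were higher, for example mt-Co1 at 4431, 5972 and 4770.4 FPKM against 8445, 8836 and 8859 FPKM (0.80) and mt-Nd4 (0.79), and 1 was called with the dual-arm libraries as 1 sample. Of 17 tested histone genes 11 were higher and none lower, among them the linker histones H1f5 (1.52) and H1f4 (1.02), and 2 were called as 1 sample.

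The difference between the groups went with transcript length over all genes. Genes were split by length into 5 equal groups. In the shortest group, with transcripts of 12 to 1394 bases in GENCODE M21, the median difference was 0.31, and 44.3% were higher and 15.6% lower. The median fell to -0.02, -0.16, -0.26 and -0.34 in the following groups. In the longest, 4868 to 40378 bases, 5.92% were higher and 56.0% lower. Ribosomal and respiratory chain genes lie at the short end (median length 1124 and 927 bases) and collagen and fibroblast genes at the long end (5423 bases). Interferon gamma genes had a median length of 3014 bases, and 22 of the 28 were lower after the length trend was removed. After that removal 12 of the 29 collagen and fibroblast genes were lower, where 18 were before, 4 of the 15 TGF-β genes (median length 5090.0 bases) were lower, where 10 were before, and 16 of the 35 respiratory chain genes were higher, where 24 were before. Of the histone genes (median length 1069 bases) 6 were higher after that removal, where 11 were before. Of the 7 stefin A genes (median length 419 bases) 1 was higher after it, where 7 were before. The labels give no measure of RNA integrity, and its part in the trend was not tested.

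**Figure D4:**
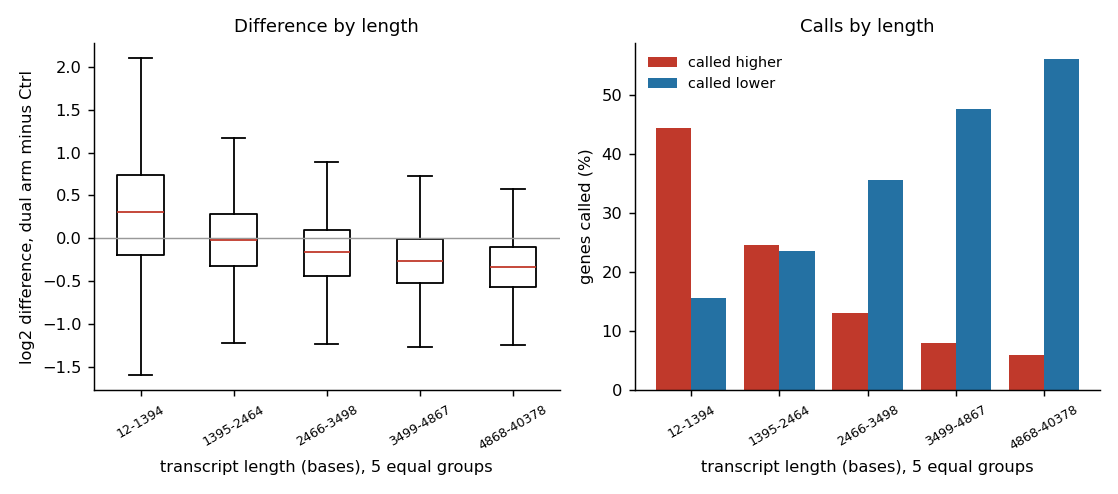
Left, log2 difference (dual-arm minus Ctrl) in 5 equal groups of genes by transcript length in bases, as boxes of the quartiles with the median in red and whiskers to 1.5 times the interquartile range. Right, the percent of genes called higher (red) and lower (blue) in the same groups. The median falls from 0.31 in the shortest to -0.34 in the longest group.

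Heat shock genes were mostly lower. Of 17 chaperones 10 were lower and 4 higher, and 2 were called as 1 sample. The inducible Hspa1b read 33.3, 55.6 and 32.1 FPKM in Ctrl and 11.2, 11.6 and 11.3 FPKM in the dual-arm libraries (-1.69, adjusted p = 0.000842), and its near-identical neighbour Hspa1a read 8.94, 8.96 and 4.58 FPKM against 1.31, 1.45 and 1.17 FPKM (-1.83). Dnaja1, a cochaperone, read 20.1, 22 and 21.4 FPKM against 10.7, 10.7 and 11 FPKM (-0.91, adjusted p = 0.000144). The constitutive Hspa8 (0.32) and Hsp90aa1 (0.28, and -0.011 after quantile normalization) and the mitochondrial Hspe1 (0.58) were higher. As TPM only Hspe1 of these was called higher, and after quantile normalization Hspa8 was called lower (-0.22). Of 20 genes of the unfolded protein and integrated stress responses 3 were higher and 5 lower, with the endoplasmic reticulum chaperone Hspa5 at 405, 418 and 337 FPKM against 237, 236 and 236 FPKM (-0.70) and Atf4 not called (-0.018). Of 22 AP-1 and immediate early genes 2 were higher, Jund and Klf6 (0.44), and 8 were lower, among them Fosl1 (-1.21), Jun (-0.64) and Junb (-0.53). The share lower was near the 35.4% of all genes, and the list median was -0.095 against -0.14 for all genes. Fos was not called (-0.68, adjusted p = 0.0956). None of the stress response or AP-1 genes was called as 1 sample.

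Splicing factors of the SR family and hnRNP proteins, which bind new transcripts and steer splice site choice, were listed after Taf15 and Ddx5 had been seen. Of 12 SR genes 7 were lower and none higher, median -0.35, and of 20 hnRNP genes 15 were lower and none higher, median -0.40. With the dual-arm libraries as 1 sample, 4 and 7 were called. Srsf5 read 129, 114 and 133 FPKM in Ctrl and 60.7, 60.1 and 58.9 FPKM in the dual-arm libraries (-1.05, adjusted p = 0.000149). Hnrnph1 read 90.8, 90.4 and 96.3 FPKM against 43, 42.7 and 45.4 FPKM (-1.06, adjusted p = 9.33e-05), and Hnrnpab read 93, 106 and 98.8 FPKM against 48.8, 46.8 and 47.8 FPKM (-1.04). Others, such as Hnrnpf (-0.053), Hnrnpl (-0.10) and Srsf9 (0.12), were not called. After removal of the trend on transcript length 6 SR genes and 9 hnRNP genes were lower (median -0.18 in both lists), beside 3140 of 12853 genes overall.

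Proliferation genes gave no common direction. Of 25 genes of the G2 and M phases 3 were higher and 8 lower, and of 24 DNA replication genes 4 and 4. Without Ctrl library 2, 18 of the 25 were called, and as 1 sample 2 of the 25 and none of the 24. Mki67, the marker Ki-67, read 24.4, 16.4 and 20.5 FPKM in Ctrl and 9.67, 9.55 and 9.43 FPKM in the dual-arm libraries (-1.0, adjusted p = 0.00124), and the spindle protein Prc1 read 7.35, 7.11 and 8.22 FPKM against 2.4, 2.09 and 2.2 FPKM (-1.41, adjusted p = 0.000115). Birc5, survivin, which guides chromosomes in mitosis, read 24.7, 23.2 and 27.4 FPKM against 37.9, 36.7 and 38.9 FPKM and was higher (0.58, adjusted p = 0.00101). Cdk1 (0.20), Plk1 (-0.045) and Ccnb1 (-0.25) were not called. The ubiquitin ligase Mdm2, a p53 target, read 16.8, 16.7 and 16.8 FPKM against 9.55, 9.42 and 8.82 FPKM (-0.79), and the p53 target Cdkn1a was not called (0.084).

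Metabolic lists were mixed. Of 25 glycolysis and HIF-1 genes 5 were higher and 8 lower. Pgam1 read 244, 253 and 231 FPKM in Ctrl and 125, 128 and 126 FPKM in the dual-arm libraries (-0.94, adjusted p = 0.000114), Ero1a, an oxidase of protein folding, differed by -0.83, and Aldoa (0.43, and -0.10 after quantile normalization) and Gapdh (0.92) were higher. The hypoxia markers Car9 (-0.24) and Slc2a1 (-0.12) were not called. Of 20 cholesterol synthesis genes 4 were higher and 8 lower, with Idi1 far beyond the others, Hmgcs1 at -0.61 among the lower and Fdft1 at 0.54 among the higher. Antioxidant genes were higher in 8 of 21 and lower in 3, with the glutathione peroxidase Gpx1 at 14, 16.1 and 15.3 FPKM against 38.7, 41 and 37.2 FPKM (1.31), Gpx4 (0.88) and Prdx1 (0.73) higher and the heme oxygenase Hmox1 (-0.80) lower. Proteasome subunits, which degrade tagged proteins, were higher in 8 of 26 and lower in 2, with the core subunit Psmb3 at 0.68 and the ATPase Psmc6 at -0.50. As TPM the split turned to 4 higher and 13 lower. As 1 sample 4 glycolysis, 3 cholesterol, 3 antioxidant and 1 proteasome gene were called.

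Few genes of the sodium pump, the target of digoxin, passed the test. Of 8 tested Na,K-ATPase subunits and their FXYD regulators, 1 was higher and 1 lower, while 5 were called without Ctrl library 1. Fxyd5, which regulates the pump and cell adhesion, read 98.2, 92.7 and 95.2 FPKM in Ctrl and 131, 128 and 134 FPKM in the dual-arm libraries (0.46, adjusted p = 0.000645). The β subunit Atp1b1 read 12, 3.2 and 2.49 FPKM against 1.3, 1.4 and 1.19 FPKM and narrowly missed the threshold (-1.33, adjusted p = 0.0501). The -1.33 leans on Ctrl library 1, the highest. Without that library the difference was smaller in size, with limma adjusted p = 0.00206. The β subunit Atp1b3 was not called (-0.015, adjusted p = 0.919). Of 6 genes for sodium and digoxin transport 4 were lower, including Abcb1a and Abcb1b, the pumps that export digoxin from cells (-0.66 and -0.45). None of the pump or transport genes was called as 1 sample.

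Il23a, a subunit of the cytokine that sustains type 17 cells, was higher as given above, whereas the receptor Il17ra (-0.69) and Ahr, which supports interleukin 22, at 7.55, 6.37 and 6.37 FPKM against 2.72, 2.85 and 2.81 FPKM (-1.03, adjusted p = 0.000264), were lower. Of the 14 listed type 17 genes 5 were tested. Among 16 tested clock genes 2 were higher, among them Per1 (0.30), and 2 lower, Per2 (-0.78) and Nr1d2 (-0.55).

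The dual-arm group was then set against each single-arm group in 1 limma fit of all 12 libraries on the same 13270 genes. Both comparisons share the dual-arm libraries with the one above. Against VHH-OD-Fc 5395 genes were called (40.7%), 2061 higher (15.5%) and 3334 lower (25.1%). Against VHH-PD-1-Fc 121 genes were called (0.912%), 78 higher (0.588%) and 43 lower (0.324%). The latter count rests on few libraries: it fell to between 11 and 72 without 1 dual-arm or VHH-OD-Fc library and rose to between 255 and 571 without 1 VHH-PD-1-Fc library. The single-arm PD-1 libraries shared the high FPKM sums (388142 to 401179) and ribosomal shares (14.5% to 16.9%) of the dual-arm libraries, and the VHH-OD-Fc libraries had sums of 327792 to 345596 and shares of 9.87% to 10.9%. A batch shared by the groups with a PD-1 arm cannot be told apart from that arm.

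The values below are for genes chosen from these calls after their values were seen. Gm15850 read 0.0185, 0 and 0.00818 FPKM in the VHH-PD-1-Fc libraries and 0, 0.115 and 0.0555 FPKM in the VHH-OD-Fc libraries, against 24.7, 22.7 and 23.1 FPKM in the dual-arm libraries (difference from VHH-PD-1-Fc 4.6, adjusted p = 4.27e-10). Kif21b, a kinesin motor, starts 205 bases from Gm15850 on the opposite strand in GENCODE M21. It read 2.36, 1.82 and 2.3 FPKM in Ctrl, 1.91, 1.69 and 1.64 FPKM with VHH-OD-Fc, 0.77, 0.693 and 0.637 FPKM with VHH-PD-1-Fc and 7.99, 8.53 and 8.56 FPKM in the dual-arm libraries (difference from VHH-PD-1-Fc 2.46, adjusted p = 3.02e-07). Both genes were highest in all 3 dual-arm libraries, and Gm15850 passed the filter through those libraries alone.

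Atmin, a zinc finger protein that works with the kinase ATM, read 6.15, 6.17 and 6.08 FPKM in Ctrl, 5.74, 5.81 and 6.04 FPKM with VHH-OD-Fc, 6.4, 6.62 and 6.35 FPKM with VHH-PD-1-Fc and 20.4, 21.1 and 21.4 FPKM in the dual-arm group. It differed from both single-arm groups (1.56 from VHH-PD-1-Fc, adjusted p = 7.28e-07, and 1.68 from VHH-OD-Fc, adjusted p = 4.85e-07), while the other 3 groups lay within 5.74 to 6.62 FPKM. Cldn6 read 3.79, 6.34 and 1.46 FPKM with VHH-PD-1-Fc and 0.334, 1.24 and 1.6 FPKM with VHH-OD-Fc, and the dual-arm group was higher than either (3.33, adjusted p = 0.00188, and 4.49, adjusted p = 3.50e-05). Other genes higher than in both single-arm groups were Xlr3c, a gene of an X-linked lymphocyte-regulated family (1.62 and 1.62), and Rpl39l (1.69 and 1.38).

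In another set of genes the VHH-PD-1-Fc libraries were the lowest of all. Jun, an AP-1 subunit, read 84.4, 109 and 78.4 FPKM in Ctrl, 22.6, 17.7 and 20.7 FPKM with VHH-PD-1-Fc and 59.2, 56.9 and 55.9 FPKM in the dual-arm libraries (difference 1.46, adjusted p = 0.000804). Areg read 8.83, 2.49 and 10.1 FPKM with VHH-PD-1-Fc (2.75, adjusted p = 0.0141). Of the 32 type I interferon genes 6 differed between the dual-arm and VHH-PD-1-Fc groups: Isg15 (37.1, 38.6 and 26.6 FPKM with VHH-PD-1-Fc, 1.42, adjusted p = 0.0398), Cmpk2 (1.27), Oas1a (0.83), Ifi44 (0.82), Oasl2 (0.80) and Xaf1 (0.65), all higher in the dual-arm group. None of the 28 interferon gamma genes did, in a comparison that called 0.912% of all genes. Their median difference from VHH-PD-1-Fc was 0.42, so the lack of calls does not show that the groups are alike in these genes.

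Genes lower than with VHH-PD-1-Fc were led by Spry1, at 54.1, 53.1 and 34.5 FPKM there (-1.7, adjusted p = 0.0239), Ramp1, a coreceptor for the neuropeptide CGRP, at 39.1, 43.9 and 60.9 FPKM (-1.47, adjusted p = 0.0107) and the clotting factor subunit F13a1, at 9.31, 14.2 and 8.75 FPKM against 3.18, 3.54 and 3.37 FPKM (-1.4, adjusted p = 0.0139). Ramp1 did not differ between the dual-arm group and Ctrl beyond the test (0.30, adjusted p = 0.209). Itgb5, an integrin β chain, read 112, 133 and 113 FPKM in Ctrl, 145, 120.1 and 124 FPKM with VHH-OD-Fc, 172, 167 and 162 FPKM with VHH-PD-1-Fc and 82.9, 83.6 and 84.8 FPKM in the dual-arm group, the lowest of the 4 groups without overlap (difference from VHH-PD-1-Fc -0.99, adjusted p = 0.00102, and from VHH-OD-Fc -0.62, adjusted p = 0.000758). Ltbp3 (-0.87), which binds latent TGF-β, was lower than in both single-arm groups as well.

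**Figure D5:**
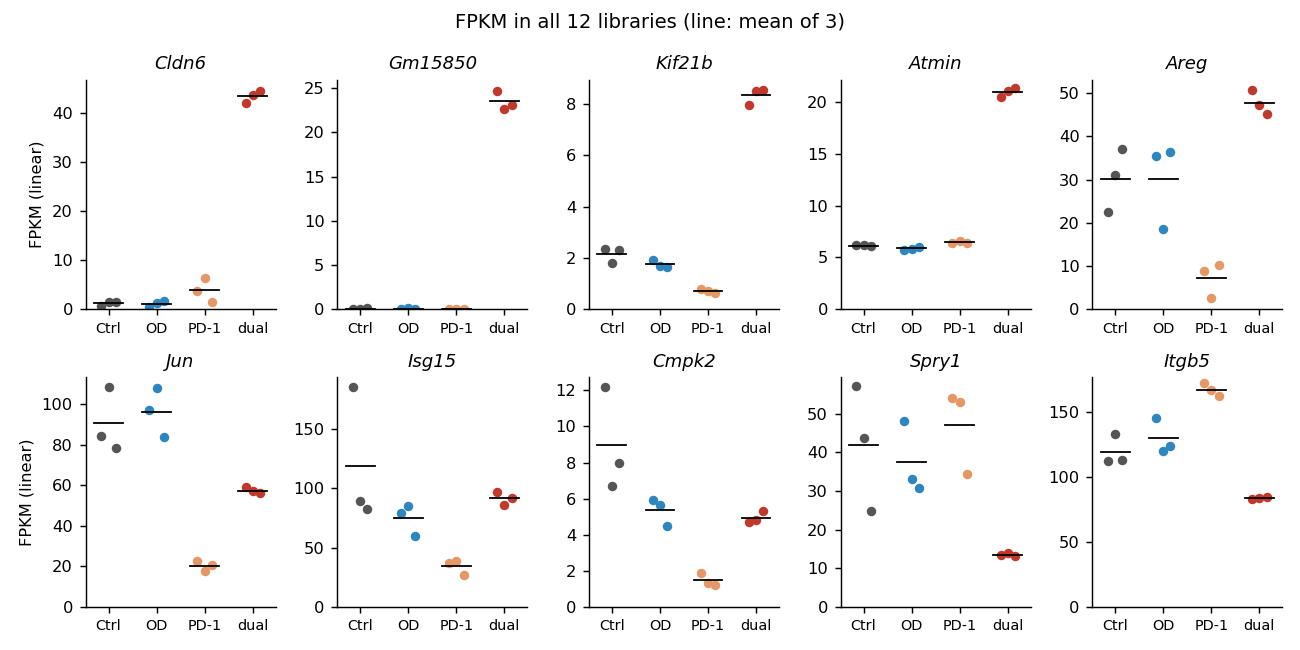
FPKM in all 12 libraries for 10 genes that differed between the dual-arm and VHH-PD-1-Fc groups, on linear axes from 0, with a line at the mean of 3 libraries (Ctrl, VHH-OD-Fc as OD, VHH-PD-1-Fc as PD-1, VHH-OD-PD-1-Fc as dual). Cldn6, Gm15850, Kif21b and Atmin stand apart in the dual-arm libraries, Areg, Jun, Isg15 and Cmpk2 are lowest in the VHH-PD-1-Fc libraries, and Spry1 and Itgb5 are lowest in the dual-arm libraries.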

How the data were processed

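Bulk RNA was sequenced from mouse tumours, 3 libraries a group, in 12 libraries of which 6 carry the main comparison. The authors deposited 1 table of FPKM values per gene symbol, in which 12 columns matched the sample titles. Per the submitters' processing notes, fastp 0.22.0 and HISAT2 2.2.1 were used and the build is GRCh38, although the symbols are those of mouse genes. For the program that computed FPKM, its annotation and its use of strand, the sources used here give nothing, so the reads of overlapping genes cannot be told apart: of the 277 genes named, 270 matched GENCODE M21 and 128 of them overlap another gene. The series' own design text speaks of LLC tumours and digoxin, which no sample label does, and groups were taken from the sample titles.

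FPKM values are not counts, so they were tested as log2(FPKM + 1) with limma 3.58.1 (R 4.3.3) with a variance trend, after a filter of at least 1 FPKM in at least 3 of the 6 libraries, with 4 residual degrees of freedom and Benjamini-Hochberg adjustment over all 13270 genes. The single-arm groups were compared in 1 fit of all 12 libraries. The labels do not say that libraries came from separate animals, so the p-values measure the spread between libraries, which may be technical. About 96% of low values were within 0.05 of a whole multiple of the step used for the depth estimate. Scripts were tested on simulated data.

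The genes named are the 15 largest called rises and falls without overlap, 8 each among means of at least 100 FPKM, up to 5 called members of smallest p per direction in each of 46 gene lists, genes at 0 in 1 group, and defining markers and treatment targets. Further list members are named beside them, and some genes that the rule names are not reported here. The comparison, its members and the lists were chosen with earlier results of these data known. 3 lists (SR factors, hnRNP proteins, stefin A) and the genes that differ from the single-arm groups were added after their values were seen. Alternatives were another pseudocount (0.1), no filter or a mean of at least 5 FPKM, TPM, median-of-ratios factors, quantile normalization, removal of a loess trend on GENCODE M21 transcript length (matched for 96.9% of tested genes), all 12 libraries in the fit, library weights, the dual-arm libraries as 1 sample, a replicate block, no variance trend, and leaving out each library. Promoters and their coordinates are from RefSeq (GRCm38.p6).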

Additional observations from a re-analysis of the deposited data

How the results depend on the processing

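Of the 7269 genes called in the dual-arm group against Ctrl, 4408 calls were made among genes with a mean of at least 5 FPKM and 1338 with the dual-arm libraries as 1 sample, and between 5738 and 8189 when single libraries were left out. The 2573 genes called higher became 4668 with no filter, 1570 as TPM and 582 with the dual-arm libraries as 1 sample. The 4696 called lower became 2585 among genes with a mean of at least 5 FPKM and 756 with the dual-arm libraries as 1 sample. Of the calls, 51.2% were higher with no filter and 41.4% among genes with a mean of at least 5 FPKM. The 1044 calls of at least 2-fold became 1843 with a pseudocount of 0.1, 477 among genes with a mean of at least 5 FPKM, 2128 as TPM and 662 with the dual-arm libraries as 1 sample. Fewer genes or samples enter the tests with the higher minimum and with 1 dual-arm sample.

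Of the named genes, 211 were called, and 67 of them with the dual-arm libraries as 1 sample. Of the 46 gene lists, 17 had at least 50% of their tested members called in 1 direction. That number was 27 as TPM, 10 with median-of-ratios factors, 11 after quantile normalization, 6 after removal of the length trend, 8 with all 12 libraries in the fit, 0 with the dual-arm libraries as 1 sample and between 8 (without a dual-arm library) and 22 (without Ctrl library 1) when single libraries were left out. The cause of these shifts was not tested. The median of the epithelial to mesenchymal list turned to -0.061 as TPM and -0.022 after quantile normalization. Differences of single genes that turned were Aldoa (-0.097), B2m (-0.12), Cd74 (-0.45), H2-D1 (-0.22), Hsp90aa1 (-0.011), Hspa8 (-0.22), Rpl4 (-0.42) and Vim (-0.13) after quantile normalization, B2m (-0.0087) after removal of the length trend, Oas1a (-0.023) and Tgfb3 (-0.028) as TPM, Sdha (0.017) with median-of-ratios factors, and Cldn4 (-0.79) and H2-Eb1 (0.16) without Ctrl library 1. With single libraries left out, Cldn4 ranged from -0.79 to 0.76 and H2-Eb1 from -0.14 to 0.16.

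The 121 genes that differed between the dual-arm and VHH-PD-1-Fc groups became 77 as TPM and ranged from 11 to 571 when single libraries were left out. Without 1 dual-arm library the number was 11 each time, without 1 VHH-OD-Fc library 49, 52 or 72, and without 1 VHH-PD-1-Fc library 503, 255 or 571. The 5395 genes that differed from VHH-OD-Fc stayed within 1.5 times of that number under every alternative run.

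The labels number the libraries 1 to 3 in each group. Deviations of same-numbered libraries from their group means were correlated by r = 0.0104, 0.0014 and 0.0042 across genes. Between libraries of different numbers r ranged from -0.0127 to 0.0115, so the values show no pairing. If the dual-arm libraries are repeats of 1 tumour, the check could not show pairing, so it does not exclude it. With a replicate block 6562 genes were called against Ctrl and 38 between the dual-arm and VHH-PD-1-Fc groups. FPKM gives no counting error for a gene, so the precision of genes near 1 FPKM is not known beyond the spread of the libraries.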

Other observations

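Among all tested genes 19.4% were higher and 35.4% lower. Of 866 tested pseudogenes 400 were higher and 188 lower in the dual-arm group, with a median log2 difference of 0.36, against 1773 higher and 4168 lower of 11097 protein-coding genes (median -0.17). The tested pseudogenes had a median transcript length of 554 bases and the protein-coding genes one of 3288 bases. Small nuclear RNA loci, which belong to the spliceosome and lack poly(A) tails, were higher in 29 of 51 and lower in 2 (median 1.18), while 27 of 86 small nucleolar RNAs were higher and 27 lower (median -0.11) and 11 of 64 microRNA loci were higher and 21 lower, shares near those of all genes (median -0.43). Many of these loci have near-identical copies, so their reads may be shared.

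A total of 3498 gene symbols were listed at 0 in all Ctrl libraries and above 0 in all dual-arm libraries, with a median of 0.130 FPKM where present, and 48 of them reached the filter. The reverse pattern held for 371 symbols (median 0.113 FPKM), of which 15 reached the filter. Among those listed at 0 in Ctrl, Ctrcos, a non-coding transcript, was named by the rule on genes at 0 in 1 group together with 4 microRNA loci and 3 copies of the 5S ribosomal RNA. Among those listed at 0 in the dual-arm group the rule named Mir186, Mir6991, Mir6386, Mir1938 and Mir8103 and the small nucleolar RNAs Snord98, Snord59a and Snord70.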
